A study of Rattus norvegicus with 6 samples.

Results

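The 10 genes described here encode proteins that move, fuse, divide or mark mitochondria, namely Rhot1, Rhot2, Trak1, Trak2, Mfn1, Mfn2, Opa1, Dnm1l, Fis1 and Pink1. They were chosen by name, as the rows of the deposited count table that carry these symbols, and are 10 of its 20609 genes. The libraries came from PC12 cells, a rat line that grew out of an adrenal medulla tumor (pheochromocytoma). There were 3 control libraries, from cells given a control plasmid, and 3 PCBP1-OE libraries, from cells given a plasmid for EGFP-tagged PCBP-1, a poly(rC)-binding protein that acts on RNA. Both groups were therefore given a plasmid, and no source used here names the insert of the control plasmid. The study's text calls the overexpression stable in places and describes a transient transfection in its methods. The study reported that a splicing event of Rhot1 tended to decrease in PCBP1-OE, with RT-qPCR as a check. It proposes that PCBP-1 acts directly on this splicing. Counts of whole genes, analysed here, address a separate question, whether the amount of these transcripts differed.

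Mitochondria form a network that is remodelled by opposing reactions. On the outer membrane the mitofusins Mfn1 and Mfn2 fuse organelles and on the inner membrane Opa1 does so, while the dynamin-like GTPase Dnm1l (Drp1) constricts and divides them after recruitment by receptors such as Fis1. Rhot1 and Rhot2 (Miro1 and Miro2) are calcium-binding GTPases of the outer membrane that hold the adaptors Trak1 and Trak2, which in turn connect to kinesin and dynein for transport along microtubules. Pink1 is a kinase that builds up on damaged mitochondria and starts their removal by mitophagy, and loss of its function causes an inherited form of Parkinson's disease.

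The 6 libraries held 19730209 to 22315623 counts on genes. The study calls the libraries of a group biological replicates. Neither its methods nor the labels say how they were kept apart, for instance as separate cultures or transfections, and p-values measure the spread between these libraries. No row of the table was matched to Pcbp1, so the overexpression itself was not analysed here. Markers of the adrenal medulla were nearly absent from libraries labelled PC12. Of 8 matched chromaffin markers, 5 stayed under 10 counts in every library, among them Chga, a core protein of chromaffin granules, with 0 to 3 counts, and Dbh, which makes noradrenaline, with 0 to 5. Th, the first enzyme of catecholamine synthesis, had 141 to 185 counts. In bulk RNA, fewer cells of a type and less RNA per cell cannot be told apart. By contrast Sox10, a transcription factor of neural crest and glial cells, had 7160 to 9007 counts, S100b, a calcium-binding protein of glia, 4143 to 5339, and Pdgfra, a growth factor receptor of mesenchymal and glial precursor cells, 3939 to 4941. Summed over 8 chromaffin markers the level was 10.3 to 11.3 CPM (counts scaled for library size) in controls and 10.2 to 11.5 CPM in PCBP1-OE, and over 6 glial markers 620 to 665 CPM and 587 to 607 CPM. The glial sums did not overlap and were lower in PCBP1-OE. So were those of fibroblast markers, 224 to 229 CPM in controls and 199 to 211 CPM in PCBP1-OE. Leukocyte markers were lower too, at 6.82 to 7.76 CPM and 6.13 to 6.22 CPM, while chromaffin and endothelial sums overlapped. Some markers, among them Chga and Dbh, had too few counts for a test. None of the markers tested differed between groups at an adjusted p of 0.05 or less in edgeR's test, where the smallest was 0.0644, for Pdgfra. The part of these levels in the results below was not tested.

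Of the 10 genes, 9 had enough counts for a test, with 283 to 2516 counts per library. At an FDR of 0.05 in edgeR's quasi-likelihood test, 1 of the 9 passed, Fis1, which fell, and 0 rose. Over all 12624 genes tested 9.45% passed, 4.45% upward and 5.00% downward, so 1 of 9 is near the background. Without control replicate 3 there were 3 calls among the 9, 2 of them upward. That fit also called more genes over all genes, 2860, of which 1395 were upward. Under upper-quartile scaling 655 of 1082 calls over all genes were upward, beside 562 of 1193 in the quasi-likelihood test with all libraries and TMM scaling. At an unadjusted p under 0.05 there were 4 of the 9 genes, against 28.4% of all genes tested. None of the 9 reached the 2-fold change that the study required of a differentially expressed gene. That change together with an FDR of 0.05 was met by 24 genes, 0.190% of those tested. The study reported more genes at these thresholds with edgeR, and does not state its test, filter or scaling. The reason for the difference was not tested. The median log2 fold change of the 9 genes was -0.017, beside 0.0029 for all genes tested, with 3 genes above 0 and 6 below. Their median absolute log2 change was 0.093, beside 0.13 for all genes. In 4 of the 9 the libraries of the groups did not overlap, 1 higher and 3 lower in PCBP1-OE, and over all genes tested this held for 30.6%, 14.1% higher and 16.5% lower. Levels below are CPM after TMM scaling, and since they are not divided by transcript length they are compared between groups and not between genes.

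**Figure D1:**
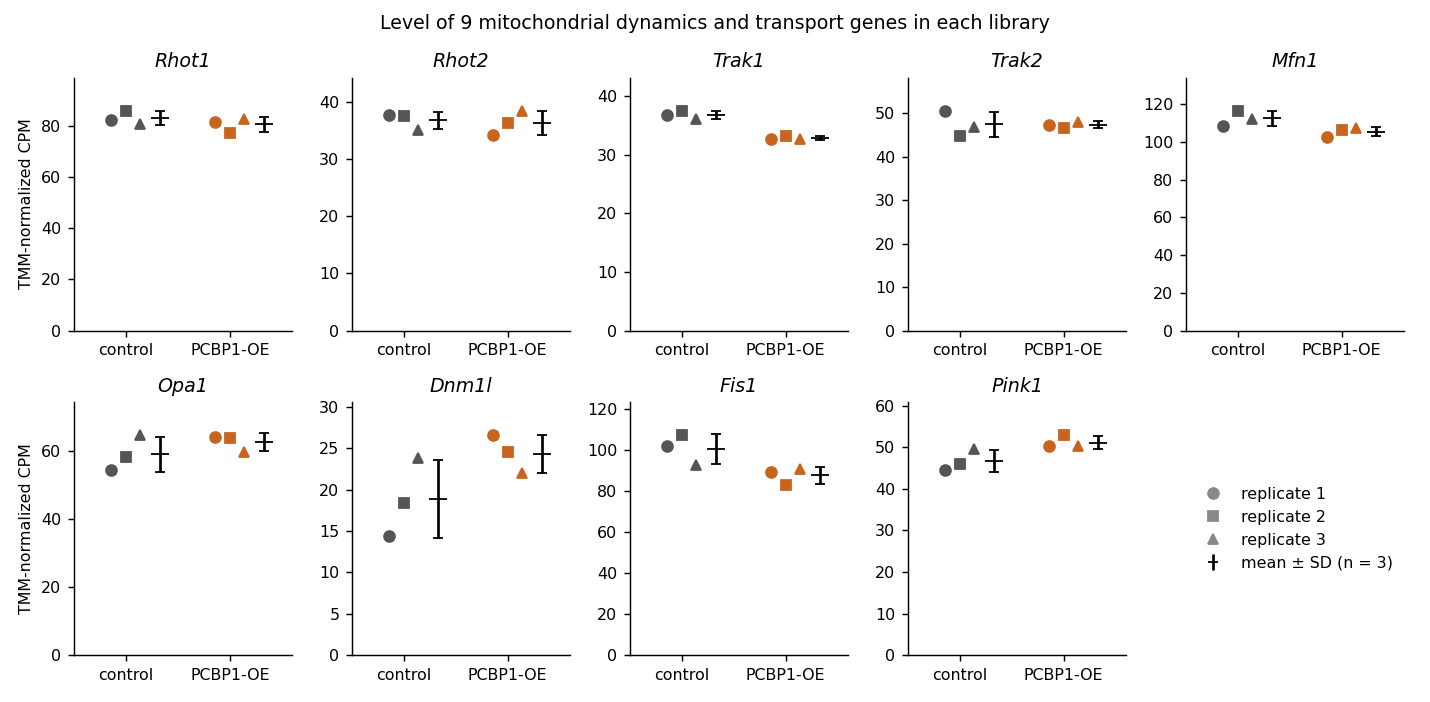
The vertical axis of each panel gives the level of 1 gene in TMM-normalized CPM from 0, points are single libraries shaped by replicate number (dark, control; orange, PCBP1-OE), and bars are the mean ± SD of 3 libraries. Trak1, Mfn1 and Fis1 sit lower and Pink1 higher in all PCBP1-OE libraries than in all controls, while Dnm1l is spread from 14.4 to 23.9 CPM within controls.

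The transport genes come first. Rhot1 (ENSRNOG00000004093, chromosome 10) was at 82.2, 85.9 and 80.8 CPM in control replicates 1, 2 and 3, and at 81.6, 77.3 and 82.7 CPM in PCBP1-OE replicates 1, 2 and 3. The groups overlapped, with the lowest and the second lowest value on opposite sides. From 83.0 ± 2.64 CPM to 80.5 ± 2.87 CPM (SD, n = 3 each), the log2 fold change was -0.043 (standard error, SE, 0.048, with 0.598 as adjusted p in edgeR's quasi-likelihood test). Its 95% interval, which like the others here is not adjusted for the number of genes, runs from -9.61% to 4.26%. A larger change of the total Rhot1 transcript lies outside that interval. In all 14 alternative fits its sign stayed negative and its adjusted p lay between 0.416 and 0.934.

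The study measured Rhot1 splicing by RT-qPCR, and the primers are shown because they mark a sequence difference between transcripts that a count of the whole gene adds together. Capitals mark the 10 bases at the 3′ end that the forward primers have in common.
Forward primer listed as Rhot1-M: ccatgtacccGCACGTGACA
Forward primer listed as Rhot1-AS: ttcttaacagGCACGTGACA
Reverse primer shared by both forward primers: gcaaagacagtagcacca
The forward primers are 20 bases long each and differ at 7 positions, all of them in the lower-case part. Reads from transcripts with either sequence fall in the same row of the count table, so the levels given for Rhot1 are those of all its isoforms together, and the share of each was not analysed here.

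Rhot2 (ENSRNOG00000019930, chromosome 10), the paralog of Rhot1, had 37.7, 37.6 and 35.1 CPM in controls and 34.3, 36.4 and 38.5 CPM in PCBP1-OE. Both the lowest and the highest library belonged to PCBP1-OE. Its log2 fold change was -0.017 (SE 0.065, edgeR adjusted p = 0.894), with an interval of -10.4% to 9.00%, and its sign turned when control replicate 1 (0.0066), control replicate 2 (0.0040) or PCBP1-OE replicate 1 (0.025) was left out, and with upper-quartile scaling (0.0030). Reads on Rhot1 were 2.18, 2.29 and 2.30 times those on Rhot2 in controls and 2.38, 2.12 and 2.15 times in PCBP1-OE. This ratio is taken within a library and so does not depend on scaling. It overlapped between groups (two-sided exact permutation test on log2 ratios, p = 0.8, and 0.9 after adjustment over 3 ratios).

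Trak1 (ENSRNOG00000019262, chromosome 8), which binds both kinesin and dynein, was at 36.9, 37.6 and 36.1 CPM in controls and at 32.7, 33.3 and 32.8 CPM in PCBP1-OE. Every PCBP1-OE library lay below every control, and the libraries of each group lay close together, with coefficients of variation of 2.02% and 0.898%. Counting alone would give 3.60% and 3.84%, so spreads this small are not a measure of precision. The log2 fold change was -0.16 (SE 0.059), a difference of -10.6% with an interval of -18.2% to -2.38%, and its edgeR adjusted p of 0.0927 missed the threshold. It missed it in all 14 alternatives too, at 0.0626 to 0.263, with a log2 fold change of -0.18 to -0.14. Trak2 (ENSRNOG00000010881, chromosome 9), which is found mainly with dynein, was at 50.6, 44.8 and 46.8 CPM in controls and at 47.3, 46.5 and 48.1 CPM in PCBP1-OE. Here the PCBP1-OE libraries lay inside the range of controls. Its log2 fold change was -0.0020 (SE 0.059, edgeR adjusted p = 0.985), with an interval of -8.52% to 9.02%.

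Within libraries, reads on Trak1 were 0.729, 0.839 and 0.770 times those on Trak2 in controls and 0.691, 0.715 and 0.682 times in PCBP1-OE. All PCBP1-OE ratios were below all controls, with means of 0.779 ± 0.0554 and 0.696 ± 0.0170 (SD, n = 3 each). The difference on the log2 scale was -0.16 beside a spread within groups of 0.076. The two-sided exact permutation test gave p = 0.1, the smallest that 3 libraries against 3 allow, and 0.3 after adjustment over the 3 ratios. Leaving out 1 library at a time moved that difference by less than its spread.

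Among the fusion genes, Mfn1 (ENSRNOG00000011057, chromosome 2) was at 108, 116 and 112 CPM in controls and at 103, 106 and 107 CPM in PCBP1-OE. The groups were separate by a narrow margin, 107 CPM against 108 CPM. Its means of 112 ± 4.02 CPM and 105 ± 2.42 CPM (SD, n = 3 each) gave a log2 fold change of -0.093 (SE 0.045, edgeR adjusted p = 0.193), and no alternative brought it to an FDR of 0.05 (0.176 to 0.588).

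The row named Mfn2 (ENSRNOG00000046447, chromosome 5) drew 1, 1 and 3 reads in controls against 0, 2 and 0 with PCBP1-OE, 7 in all, and was left out of the test by the filter. No level and no fold change can be read from so few reads. Another row on chromosome 5, LOC100911485 (ENSRNOG00000046424), is described in the same table as mitofusin-2-like. It drew 1651, 1740 and 2097 reads in controls against 1805, 1645 and 1541 with PCBP1-OE, 10479 in all. Of the counts on these rows together, 0.0668% were on the row that carries the symbol Mfn2. The near-empty row therefore does not say that mitofusin 2 transcripts were absent. Which of the rows holds the mitofusin 2 gene itself cannot be settled from the count table, and reads that match near-identical copies equally well would be lost to both, since uniquely mapped reads were counted. LOC100911485 was examined because its values had been seen.

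At the level of LOC100911485, controls were at 84.2, 83.4 and 93.5 CPM and PCBP1-OE at 81.9, 81.5 and 78.7 CPM. All PCBP1-OE libraries were below all controls, and the log2 fold change was -0.11 (SE 0.052, edgeR adjusted p = 0.190), with an interval of -14.3% to 0.274%. Taking it as the mitofusin 2 gene left the number of called genes at 1 of 10, with a median log2 fold change of -0.030. Reads on Mfn1 were 1.29, 1.40 and 1.20 times those on LOC100911485 in controls and 1.25, 1.30 and 1.36 times in PCBP1-OE. These ratios overlapped (exact permutation test, p = 0.9, and 0.9 after adjustment over 3 ratios).

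**Figure D2:**
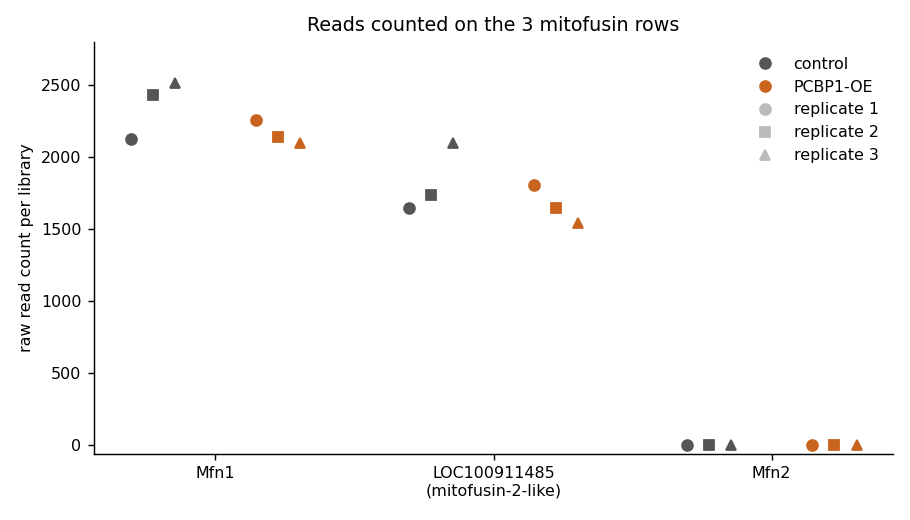
The vertical axis gives raw read counts per library, not scaled for depth, for the 3 rows of the table described as mitofusins, with points for single libraries (dark, control; orange, PCBP1-OE) shaped by replicate number. Mfn1 holds 2100 to 2516 counts and LOC100911485 holds 1541 to 2097, while the row Mfn2 lies at 0 to 3.

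Opa1 (ENSRNOG00000001717, chromosome 11), the inner membrane GTPase that also shapes cristae, was at 54.3, 58.2 and 64.4 CPM in controls and at 64.1, 63.8 and 59.5 CPM in PCBP1-OE. Control replicate 3 was the highest library of all, and the groups overlapped. The means were 59.0 ± 5.13 CPM and 62.5 ± 2.55 CPM (SD, n = 3 each). The log2 fold change was 0.082 (SE 0.064, edgeR adjusted p = 0.430), with an interval of -3.76% to 16.4%, and its adjusted p was 0.0718 to 0.795 over the alternatives.

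Among the fission genes, Dnm1l (ENSRNOG00000001813, chromosome 11) drew 283, 383 and 535 reads in controls against 585, 494 and 430 with PCBP1-OE, which is 14.4, 18.3 and 23.9 CPM against 26.5, 24.5 and 22.0 CPM. Control replicate 3 lay above PCBP1-OE replicate 3, so the groups overlapped. Within controls its coefficient of variation was 25.1%, where counting alone would give 5.00%, and this was the widest spread of the 9 genes. It had the largest fitted change of the 9, a log2 fold change of 0.36 (SE 0.14) with an interval of 3.78% to 59.2%, and its edgeR adjusted p was 0.117. The value rests on single libraries. Without control replicate 3 the log2 fold change was 0.57 (adjusted p = 0.00201), and without control replicate 1 it was 0.21 (0.354). With no filter on low counts its adjusted p was 0.00217, and 0.00201 to 0.354 is the range over all alternatives.

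Fis1 (ENSRNOG00000001420, chromosome 12), a small tail-anchored protein of the outer membrane, was at 102, 107 and 92.8 CPM in controls and at 89.4, 83.0 and 90.9 CPM in PCBP1-OE. Every PCBP1-OE library lay below every control, with control replicate 3 nearest to them. From 101 ± 7.36 CPM to 87.8 ± 4.22 CPM (SD, n = 3 each), Fis1 fell by 0.20 on the log2 scale (SE 0.058), a change of -12.9% with an interval of -20.1% to -4.96%, and its edgeR adjusted p was 0.0488. This call is at the edge of the threshold. It was lost without control replicate 1 (adjusted p = 0.171), control replicate 2 (0.243) and PCBP1-OE replicates 1 (0.142), 2 (0.182) and 3 (0.0827), and kept without control replicate 3 (0.00251). It was kept in 4 of 14 alternatives, with an adjusted p of 0.00251 to 0.243, while the log2 fold change stayed negative, from -0.26 to -0.15.

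Dnm1l and its receptor Fis1 thus had fitted changes of opposite sign. Within libraries the reads on Dnm1l were 0.141, 0.171 and 0.257 times those on Fis1 in controls and 0.297, 0.295 and 0.241 times in PCBP1-OE. Control replicate 3 lay among the PCBP1-OE libraries and the groups overlapped. This ratio was chosen after its values were seen and was not tested.

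**Figure D3:**
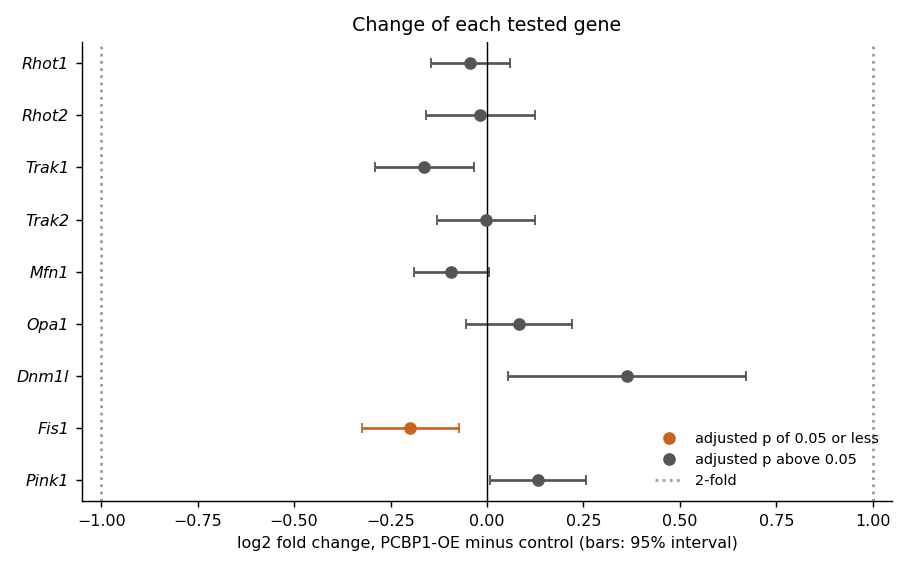
The horizontal axis gives the log2 fold change of PCBP1-OE minus control for the 9 genes tested, with points for the edgeR estimate and bars for its 95% interval, not adjusted for the number of genes. Only Fis1 (orange, -0.20) has an adjusted p of 0.05 or less, Dnm1l at 0.36 has the widest interval, and no interval reaches the dotted 2-fold lines.

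Pink1 (ENSRNOG00000015385, chromosome 5) was at 44.4, 45.9 and 49.5 CPM in controls and at 50.2, 52.8 and 50.3 CPM in PCBP1-OE. The PCBP1-OE values all exceeded those of controls, by less than 1 CPM at the nearest pair. The means were 46.6 ± 2.61 CPM and 51.1 ± 1.49 CPM (SD, n = 3 each). Its log2 fold change was 0.13 (SE 0.058), a difference of 9.56% with an interval of 0.485% to 19.5%, and the edgeR adjusted p of 0.154 missed the threshold. Without control replicate 3 it reached 0.0404 with a log2 fold change of 0.18, and over all alternatives the adjusted p was 0.0404 to 0.373.

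**Figure D4:**
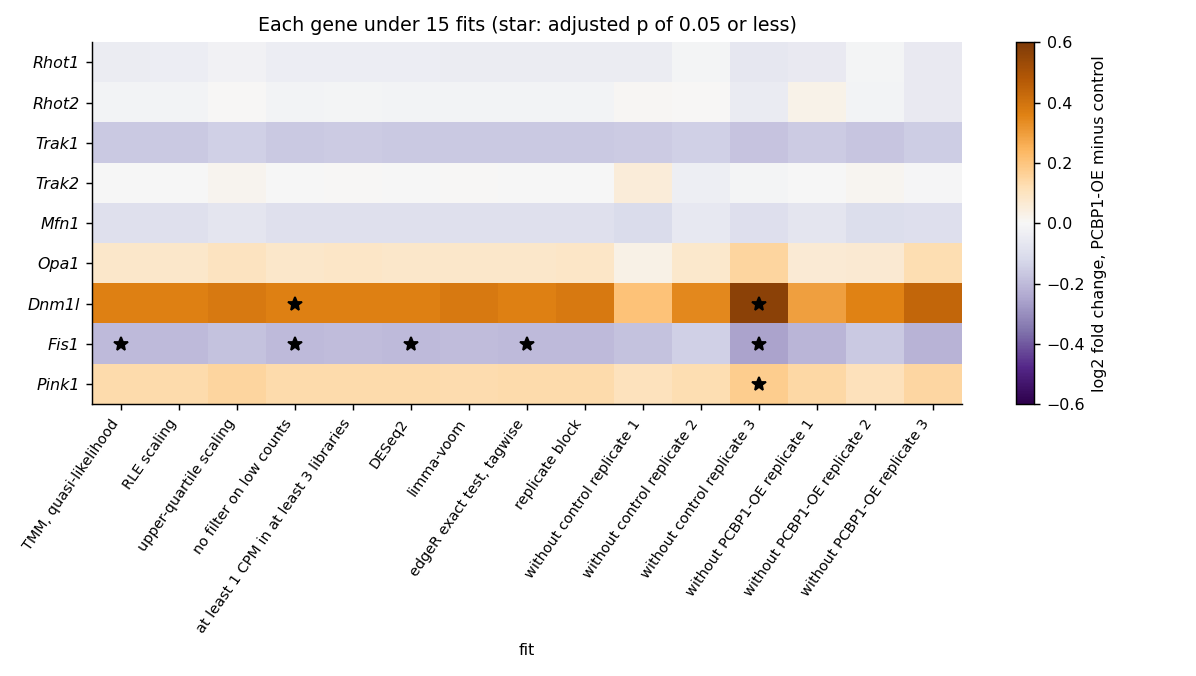
Columns are 15 fits of the same counts, the TMM and quasi-likelihood fit first, rows are the 9 genes tested, colour gives the log2 fold change of PCBP1-OE minus control, and a star marks an adjusted p of 0.05 or less. Stars fall on Fis1 in 5 fits, on Dnm1l in 2 and on Pink1 in 1, and all 3 genes carry one without control replicate 3.

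The wider network was examined through 4 lists chosen by role. The list of other fusion and fission factors had 24 genes, of which 19 were tested and 1 passed an FDR of 0.05, upward. The median log2 fold change was 0.020, with 10 genes above 0 and 9 below. Without control replicate 3 there were 5 calls, 3 of them upward, in a fit that called 2860 genes over all genes, 1395 of them upward. The gene that rose was Marchf5 (listed as March5), a ubiquitin ligase of the outer membrane that acts on fusion and fission proteins. It was at 63.3, 64.4 and 65.9 CPM in controls and 74.7, 76.2 and 69.7 CPM in PCBP1-OE, which did not overlap, and its log2 fold change was 0.19 (SE 0.050, edgeR adjusted p = 0.0373). The call held without control replicate 3 (0.0137) and PCBP1-OE replicate 3 (0.0322), and was lost without control replicates 1 (0.0944) and 2 (0.124) and PCBP1-OE replicates 1 (0.130) and 2 (0.141), in a range of 0.0137 to 0.147.

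The other receptors of Dnm1l did not pass the test. Mff, which recruits Dnm1l to the outer membrane, was at 112 ± 3.98 CPM in controls and 101 ± 5.27 CPM in PCBP1-OE (SD, n = 3 each), with a log2 fold change of -0.15 (edgeR adjusted p = 0.0718). Mff reached an FDR of 0.05 in 1 alternative, without control replicate 3 (0.0170), in a range of 0.0170 to 0.295. Mief1 and Mief2, adaptors that also bind Dnm1l, had log2 fold changes of 0.33 (adjusted p = 0.132) and 0.085 (0.714). Oma1, a protease that cuts Opa1 under stress, had one of 0.072 (0.647). Yme1l1, another protease of Opa1, had 0 to 10 counts per library and was not tested.

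The list of motors and tethers had 22 genes, and 2 of 19 tested passed, both upward, with a median log2 fold change of -0.026 over the list. Kif5b, a heavy chain of kinesin-1, the motor toward microtubule plus ends, was at 58.6, 51.4 and 66.6 CPM in controls and at 75.7, 80.5 and 74.6 CPM in PCBP1-OE. Every PCBP1-OE library was above every control. Kif5b rose by 0.38 on the log2 scale (SE 0.076, edgeR adjusted p = 0.0134). Its adjusted p was 1.4e-04 without control replicate 3 and 0.0322 without PCBP1-OE replicate 3, and it missed the threshold without control replicates 1 (0.0505) and 2 (0.0682) and PCBP1-OE replicates 1 (0.0547) and 2 (0.0662), in a range of 7.3e-09 to 0.105.

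Dync1h1, the heavy chain of cytoplasmic dynein, the motor toward minus ends, was at 91.5, 67.8 and 71.2 CPM in controls and at 89.7, 121 and 122 CPM in PCBP1-OE. Control replicate 1 was above PCBP1-OE replicate 1, so the groups overlapped. Dync1h1 rose by 0.53 on the log2 scale (SE 0.12, edgeR adjusted p = 0.0193). The call was lost without control replicate 2 (0.127) and without PCBP1-OE replicates 2 (0.0872) or 3 (0.0603), and passed without control replicates 1 (0.0200) and 3 (0.00853) and PCBP1-OE replicate 1 (0.0189), in a range of 1.6e-16 to 0.127. Both motors bind the adaptor Trak1 in the transport complex, whose own level is given above.

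The list of the Pink1 pathway and mitophagy had 27 genes, and 2 of 24 tested passed, both downward, with a median log2 fold change of 0.041 over the list. How many calls went upward depended on the fit. Without control replicate 3 there were 10 calls, 7 of them upward, where 1395 of 2860 calls over all genes were upward. Under upper-quartile scaling 1 of 2 calls was upward. Fkbp8, a receptor for mitophagy on the outer membrane, was at 220, 229 and 209 CPM in controls and 186, 192 and 196 CPM in PCBP1-OE. It fell by 0.20 on the log2 scale (SE 0.047, edgeR adjusted p = 0.0247). Park7, which encodes DJ-1, a redox-responsive protein mutated in inherited Parkinson's disease, was at 354, 335 and 316 CPM and at 292, 301 and 303 CPM, and fell by 0.16 (SE 0.048, adjusted p = 0.0496). In both genes the groups did not overlap. The calls held with 1 library left out only without control replicate 3, where they were 0.00238 for Fkbp8 and 0.00446 for Park7. Otherwise Fkbp8 was at 0.108 and 0.176 without control replicates 1 and 2 and at 0.131, 0.0896 and 0.0567 without PCBP1-OE replicates 1, 2 and 3, and Park7 at 0.218, 0.193, 0.187, 0.137 and 0.0972 in the same order. Over all alternatives the range was 0.00238 to 0.176 for Fkbp8 and 0.00446 to 0.218 for Park7. The log2 fold change stayed negative in all of them, from -0.23 to -0.16 for Fkbp8 and from -0.20 to -0.12 for Park7. Usp30, which removes ubiquitin from mitochondria and so opposes mitophagy, was at 42.7 ± 2.85 CPM in controls and 48.2 ± 1.33 CPM in PCBP1-OE (SD, n = 3 each), with an edgeR adjusted p of 0.0869 for a log2 fold change of 0.17. It reached 0.0134 without control replicate 3, in a range of 0.0134 to 0.256.

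The list of mitochondrial mass and biogenesis had 21 genes, which include structural proteins such as the porins and regulators such as Tfam. Of 19 tested, 0 passed an FDR of 0.05 in edgeR's quasi-likelihood test, DESeq2 or limma-voom, 4 had an unadjusted p under 0.05, and edgeR's exact test called 2. The median log2 fold change was 0.047, with 14 genes above 0 and 5 below. In all 4 lists the shares called were 5.26%, 10.5%, 8.33% and 0 in the order given, beside 9.45% over all genes tested.

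**Figure D5:**
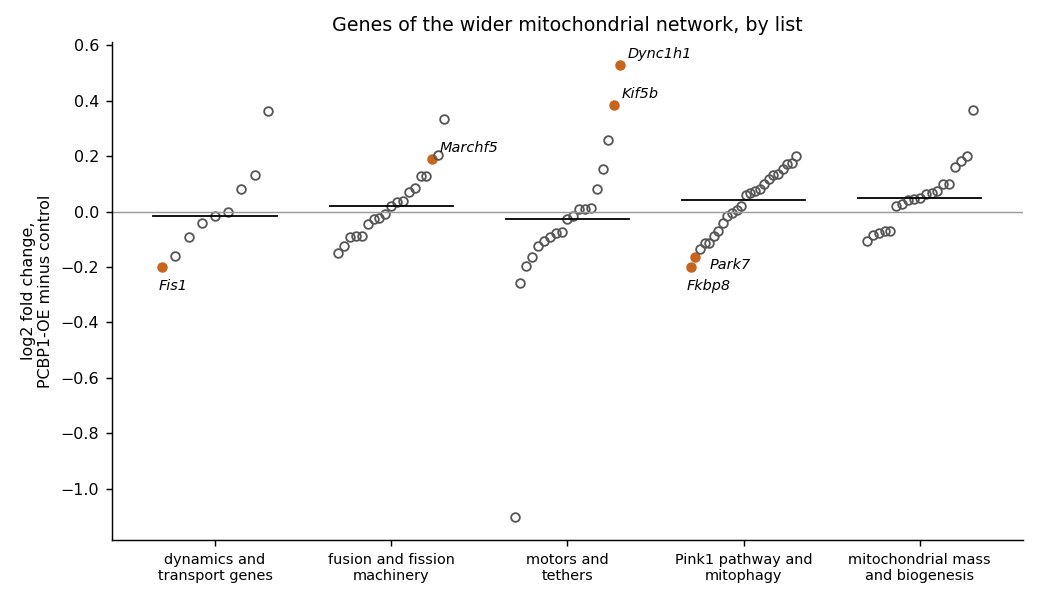
The vertical axis gives the log2 fold change of PCBP1-OE minus control for each gene tested, in the set of 9 dynamics and transport genes and in the 4 lists, ordered by value within each, with lines at medians and filled orange points for an adjusted p of 0.05 or less. Dync1h1, Kif5b and Marchf5 are the filled points above 0 and Fis1, Park7 and Fkbp8 those below, and the lowest open point, at -1.10, is Kif5a (adjusted p = 0.121 by edgeR).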

How the data were processed

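The 6 RNA-seq libraries were made from polyadenylated RNA. The values the authors deposited are raw read counts for each gene, not normalized. Per the methods, reads were trimmed with FASTX-Toolkit, aligned to the rat assembly Rnor_6.0 with TopHat2, and counted where uniquely mapped. The submitters' processing notes name the human build GRCh38 instead, while the gene identifiers are those of rat. The libraries were strand-specific per the methods and labels. No source used here names the counting tool, whether it used strand, or the annotation release, so whether reads of overlapping or antisense genes were separated is not known.

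Counts were tested with edgeR 4.0.16 (R 4.3.3, quasi-likelihood, TMM scaling, filterByExpr with minimum count 10 and minimum total 15), with Benjamini-Hochberg adjustment over the 12624 genes tested and an FDR threshold of 0.05. The filter left out 7985 genes. The 14 alternatives comprised scaling by RLE or the upper quartile, dropping the filter, requiring 1 CPM in at least 3 libraries, DESeq2 1.42.0, limma-voom (limma 3.58.1), edgeR's exact test, a replicate block and each library left out. Ratios of paralogs were compared by exact permutation tests (scipy 1.17.1). The pipeline was tested on simulated data. Depth of 19730209 to 22315623 counts per library limits precision for genes with few counts.

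The members and gene lists were chosen with earlier results of these data known. Named genes were the 10 members, 8 list genes picked by role (1 of them is not reported here), and, from each list, the genes with an FDR of 0.05 or less, at most the 6 with the smallest p. Kif5a and LOC100911485 were named after their values were seen. Symbols of list genes were looked up in the count table, with synonyms from RefSeq's GRCr8 gene table, and where several rows shared a symbol the row with most counts was taken. Primer sequences are from the study's primer table.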

Additional observations from a re-analysis of the deposited data

How the results depend on the processing

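The number of genes called among the 10 was 1, and it was 0 under RLE scaling, upper-quartile scaling, the filter of 1 CPM in at least 3 libraries and limma-voom, 2 with no filter, and 0 to 3 with 1 library left out. Over all genes tested, 1193 were called, 2090 with no filter and 48 to 2860 with 1 library left out (48 without control replicate 2, 2860 without control replicate 3). The median log2 fold change of the 9 tested genes lay between -0.052 and 0.0066 with 1 library left out.

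With 1 library left out, 0 to 5 genes passed in the list of fusion and fission factors, 0 to 3 among motors and tethers, 0 to 10 in the list of the Pink1 pathway and mitophagy, and 0 to 2 in that of mass and biogenesis. The Pink1 pathway and mitophagy list had 1 called gene under RLE scaling and under the 1 CPM filter. The mass and biogenesis list had 2 with no filter and 2 with edgeR's exact test.

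With the replicate number as a block, 16 genes were called over all genes, 0 among the 10, and 0 in the lists of fusion and fission, motors and tethers, and mitophagy. The sources do not say that a number marks a shared culture or day. Same-numbered libraries deviated from their group means with Pearson's r of -0.123, -0.104 and -0.144 across genes. Libraries of different number had an r of 0.00898 to 0.105. No reference was computed for these values, so they cannot settle whether the numbers pair the libraries.

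Among 126 results for single genes under the alternatives, 104 kept direction and side of the threshold, and 9 changed sign, all in genes near 0. Rhot2 had a log2 fold change of 0.0030 under upper-quartile scaling and -0.052 to 0.025 with 1 library left out. Trak2 was at 0.018 under upper-quartile scaling, 0.0011 with the 1 CPM filter, 6.6e-04 with limma-voom and -0.035 to 0.052 with 1 library left out. In 10 more Fis1 no longer passed the threshold, and in 3 Dnm1l or Pink1 newly passed it. All 21 values of the ratios of paralogs moved by less than their spread. The planned ratio of Mfn1 to Mfn2 was not run, since 2 libraries had 0 counts on the row Mfn2. The causes of these changes were not tested.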
